A study of Mus musculus with 2 samples.

Results

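*Bean1*, *Pnma5*, *Tuba3a*, *Tuba3b* and *Tmem40* were the 5 genes with the largest knockout over wild-type ratio of level, in UMIs per 1000000 of a library (CPM), among the 9835 genes with at least 200 unique molecular identifiers (UMIs) over both libraries, of 54146 genes listed in the count tables. They were found by their Ensembl identifiers. They were chosen by this ratio, which is therefore given as a description and was not tested. Single mouse embryonic stem (ES) cells derived from the inner cell mass were profiled by inDrop, a droplet method in which each captured RNA molecule carries a UMI. The wild-type library came from an untreated, transfected wild-type clone, and the *Lin28a* knockout library from a clone in which CRISPR/Cas9 had cut the second exon of *Lin28a*. Both were grown on gelatin with mouse embryonic fibroblast feeder cells in LIF/2i medium, so feeder cells could be captured beside the ES cells. Each condition was 1 library of 1 clone, so the knockout, the clone and the library cannot be told apart, there is no replicate check, and the intervals below (95%) cover counting error only.

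The libraries held 1856 wild-type and 1622 knockout cells with at least 500 UMIs and at most 20% mitochondrial UMIs, with medians of 6140 and 5063.5 UMIs and totals of 11639256 and 9340855 UMIs. A count of 0 in a whole library allowed up to 0.258 CPM (wild-type) or 0.321 CPM (knockout). *Lin28a* itself was at 107 CPM in wild-type and 36.6 CPM in knockout cells, with a ratio of 0.343 (0.304 to 0.387). Its RNA was thus still counted in 253 knockout cells, and counts from the end of an RNA do not read the edited exon. The paper examined its knockout clones by Western blot for LIN28A protein and by sequencing of the targeted region, so counted RNA does not mean that protein was present. All 10 ES cell markers were present, with summed levels of 4717 and 4861 CPM, and the 10 feeder fibroblast markers summed to 1770 and 1017 CPM, those of primitive endoderm to 27.5 and 33.5 CPM and those of primed epiblast to 86.7 and 65.4 CPM. Of all 15453 genes with at least 50 UMIs, 337 (2.18%) were at least 2-fold higher in the knockout library and 413 (2.67%) were at or below 0.5. The choice itself placed 5 of the 5 genes above 2-fold. They were chosen among genes with at least 200 UMIs, so these shares are over a wider set than the one chosen from.

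LIN28A is an RNA-binding protein that blocks the maturation of let-7 microRNAs and binds many mRNAs, and in naive ES cells it is found in the nucleolus as well as the cytoplasm. The 5 genes belong to no common pathway. *Tuba3a* and *Tuba3b* encode alpha-tubulins of the microtubule wall that are best known from testis. *Bean1* encodes a membrane protein of the brain that binds the ubiquitin ligase NEDD4, *Pnma5* belongs to the paraneoplastic Ma antigen family, whose members derive from the gag gene of retrotransposons, and *Tmem40* encodes a transmembrane protein of little known function.

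All 5 genes were scarce in both libraries. *Bean1* had 64 wild-type and 270 knockout UMIs, or 5.50 CPM (4.23 to 7.02) and 28.9 CPM (25.6 to 32.6), and the ratio was 5.26 (3.99 to 7.02). *Pnma5* rested on 145 and 466 UMIs, or 12.5 CPM (10.5 to 14.7) and 49.9 CPM (45.5 to 54.6), a ratio of 4.0 (3.32 to 4.86). *Tuba3a* had 170 and 497 UMIs, at 14.6 CPM (12.5 to 17.0) and 53.2 CPM (48.6 to 58.1), with a ratio of 3.64 (3.05 to 4.36). These values differ between the libraries because the genes were chosen for it. *Tuba3b* had 85 and 250 UMIs, at 7.30 CPM (5.83 to 9.03) and 26.8 CPM (23.5 to 30.3), with a ratio of 3.66 (2.85 to 4.74). *Tmem40* was the scarcest, with 51 and 150 UMIs, at 4.38 CPM (3.26 to 5.76) and 16.1 CPM (13.6 to 18.8), and its ratio was also 3.66 (2.65 to 5.14). The intervals of all 5 ratios overlapped each other, and the order of the genes was not tested. Just outside the choice stood *Oas1a*, an interferon-induced enzyme that senses double-stranded RNA, at 3.62 (2.72 to 4.88), against 3.64 for *Tuba3a* just inside. *Scml2* (3.34), *Usp26* (3.16), *1700063D05Rik* (3.12) and *Gm6736* (3.09) came next. *Scml2* and *Usp26* are X-linked genes, best known from the male germline.

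**Figure D1:**
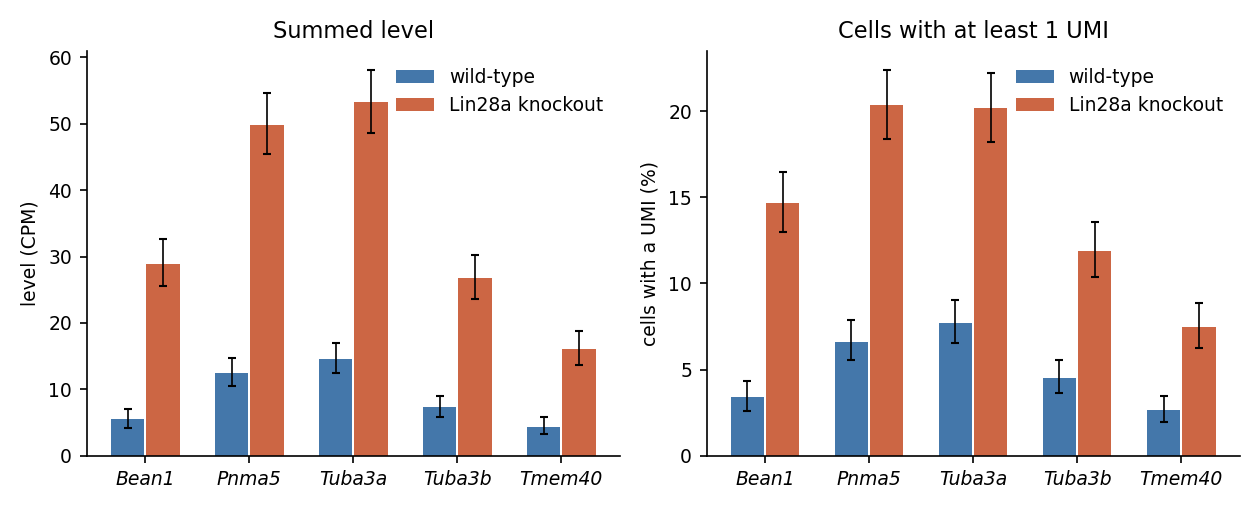
Level in CPM (left panel) and percent of cells with at least 1 UMI (right panel) of the 5 genes in the wild-type (blue) and *Lin28a* knockout (orange) library; bars are single library values and whiskers are 95% counting intervals. The knockout bar is the higher in all 5 genes, from 16.1 CPM for *Tmem40* to 53.2 CPM for *Tuba3a*.

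The number of cells with a UMI differed in the same way. *Bean1* was detected in 63 of the 1856 wild-type cells, a share of 3.39% (2.62 to 4.32), and in 238 of the 1622 knockout cells, a share of 14.7% (13.0 to 16.5). *Pnma5* was detected in 6.63% (5.54 to 7.86) and 20.3% (18.4 to 22.4) of cells, and *Tuba3a* in 7.70% (6.53 to 9.01) and 20.2% (18.2 to 22.2). *Tuba3b* reached 4.53% (3.63 to 5.57) and 11.9% (10.4 to 13.6), and *Tmem40* 2.64% (1.96 to 3.48) and 7.46% (6.23 to 8.85). Most cells of either library thus gave no UMI of any of the 5 genes: 349 wild-type cells (18.8%) and 719 knockout cells (44.3%) had at least 1. With each cell taken at 500 UMIs, which sets both libraries to the same depth, the shares were 0.299% and 1.34% for *Bean1*, 0.572% and 2.48% for *Pnma5*, 0.676% and 2.64% for *Tuba3a*, 0.360% and 1.25% for *Tuba3b*, and 0.214% and 0.811% for *Tmem40*. These shares follow the CPM that chose the genes and add no support to it.

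How the UMIs were spread over cells differed between the genes. An index of 1 is the spread that counting alone gives when each cell receives UMIs in proportion to its depth, and the median over the 9835 genes was 1.10 for wild-type and 1.12 for knockout cells. *Bean1* lay at 0.991 and 0.992, so its UMIs were scattered over cells much as depth alone would place them. In the knockout library 211 cells had 1 *Bean1* UMI, 23 had 2 and 4 had 3 or more. *Tuba3a* was the most uneven of the 5 in the knockout library, with an index of 1.78, above 94.8% of all genes, and 1.26 in the wild-type library. There, 232 knockout cells had 1 *Tuba3a* UMI, 57 had 2, 38 had 3 or more, and the highest cell had 9. *Tuba3b* was at 0.964 (wild-type) and 1.42 (knockout), *Tmem40* at 1.04 and 1.36, and *Pnma5* at 1.33 and 1.37. The index grows with the level of an unevenly expressed gene, so these pairs of values are not at matched levels.

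**Figure D2:**
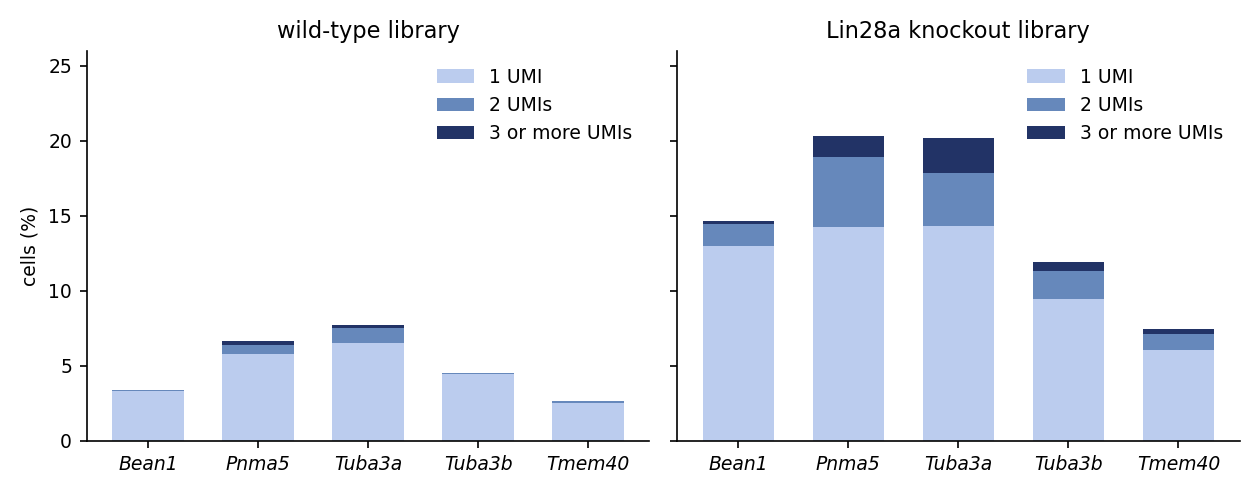
Percent of cells (vertical axis) with 1, 2 and 3 or more UMIs of each gene in the wild-type (left) and *Lin28a* knockout (right) library. Cells with a single UMI make up most of every bar, and *Tuba3a* and *Pnma5* have the most knockout cells with 3 or more, 38 and 23.

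*Tuba3a* (ENSMUSG00000067702.5, GRCm38 chr6:125278274-125286042, minus strand) and *Tuba3b* (ENSMUSG00000067338.6, chr6:145615757-145621479, plus strand) are near-identical copies far apart on the same chromosome. Their coding sequences, each 1353 bases in the GENCODE transcripts, were identical at 1312 positions (97.0%), whereas the stretches after the stop codon were identical at 76 of 92 aligned positions (82.6%). The last 200 coding bases with the stop codon lie in exon 5 of both genes (chr6:125278358-125278557, minus strand, and chr6:145621188-145621387, plus strand) and are shown because droplet reads come from this end of an RNA. Capitals mark the only position at which they differ.
Tuba3a: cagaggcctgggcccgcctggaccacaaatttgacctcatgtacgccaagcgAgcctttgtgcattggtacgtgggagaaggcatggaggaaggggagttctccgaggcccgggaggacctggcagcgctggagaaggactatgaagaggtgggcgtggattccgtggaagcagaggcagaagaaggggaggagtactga
Tuba3b: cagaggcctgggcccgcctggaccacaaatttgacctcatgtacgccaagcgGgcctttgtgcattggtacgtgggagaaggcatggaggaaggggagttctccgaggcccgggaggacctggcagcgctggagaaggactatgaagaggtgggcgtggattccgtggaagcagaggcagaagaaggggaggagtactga
Read in words of 30 bases, 685 of the 1480 different words in *Tuba3a* transcripts were also found in *Tuba3b*, so a short read from much of either RNA fits both genes.

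The counts of the copies went together in the same cells. Of 84 wild-type cells with *Tuba3b*, 77 also had *Tuba3a*, where 7.57 were expected if the genes fell independently among cells of similar depth. Of 193 knockout cells with *Tuba3b*, 183 also had *Tuba3a*, against 56.5. Over cells with at least 2000 UMIs, the correlation of their levels was 0.661 across 1642 wild-type cells and 0.697 across 1110 knockout cells, which share 1 library each, and the next gene for *Tuba3a* was at 0.118 and 0.207. In contrast, the authors' pipeline marked as ambiguous only 1 UMI of *Tuba3a* with *Tuba3b* and 1 of *Tuba3b* with *Tuba3a*, both in the knockout library, and none in the wild-type library. If each *Tuba3b* UMI is paired with a *Tuba3a* UMI of the same cell, 78 wild-type and 221 knockout UMIs were paired, and 7 and 29 *Tuba3b* UMIs remained. The unpaired *Tuba3a* UMIs numbered 92 and 276, a ratio of 3.74 (2.94 to 4.79), and the larger count of the copies in each cell summed to 177 and 526 UMIs, a ratio of 3.70 (3.12 to 4.42). For *Tuba3b* the unpaired UMIs gave 5.16 (2.21 to 14.0), on 7 wild-type UMIs, so its level apart from that of *Tuba3a* is not resolved. Whether the same molecules were counted for both genes was not tested. A processed copy, *Gm5366*, shared 152 words with *Tuba3a* and had 15 wild-type and 43 knockout UMIs.

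The 250 bases before the RefSeq start of each copy (GRCm38.p6, chr6:125286082-125286331, minus strand, and chr6:145615713-145615962, plus strand) are printed because the counts of the copies went together. Whether these counts measure the copies apart was not tested. The *Tuba3b* stretch reaches into its GENCODE gene, which starts at chr6:145615757, so the annotations place the start differently. Capitals mark CCAAT, searched on both strands.
Tuba3a: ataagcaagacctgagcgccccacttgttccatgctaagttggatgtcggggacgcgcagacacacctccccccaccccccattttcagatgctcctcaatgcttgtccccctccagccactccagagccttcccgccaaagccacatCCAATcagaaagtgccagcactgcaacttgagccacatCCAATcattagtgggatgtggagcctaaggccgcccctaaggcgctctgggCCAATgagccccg
Tuba3b: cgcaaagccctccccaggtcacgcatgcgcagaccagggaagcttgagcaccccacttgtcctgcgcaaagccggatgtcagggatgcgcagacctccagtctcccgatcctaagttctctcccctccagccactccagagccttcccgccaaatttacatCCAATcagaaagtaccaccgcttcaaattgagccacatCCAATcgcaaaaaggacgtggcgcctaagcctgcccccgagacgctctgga
The stretches were identical at 173 of 282 aligned positions (61.3%), with a longest shared run of 33 bases. *Tuba3a* held 3 matches of CCAAT and *Tuba3b* 2. Of the 32851 RefSeq promoter windows of this length, 33.8% held at least 1 match, 10.1% at least 2 and 2.79% at least 3. All 5 genes were found in the promoter table, *Tmem40* with 2 starts. *Bean1* held no CCAAT, 3 matches of GGGCGG (at least 3 in 8.47% of windows) and 1 of CACGTG (at least 1 in 6.02%), and none of the 5 held TATAAA (12.4%). A letter match describes the sequence only.

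*Bean1* (ENSMUSG00000031872.14, chr8:104170442-104219122, plus strand) had a partner in the cells that is no copy of it. The gene most like *Bean1* in either library was *Gm38299*, a transcript annotated as to be experimentally verified at chr2:32998527-33002315 (minus strand), with a correlation of 0.265 over 1642 wild-type and 0.585 over 1110 knockout cells. The next gene, *Llgl2*, was at 0.136 in the knockout library. Of 63 wild-type cells with *Bean1*, 44 (69.8%) also had *Gm38299*, and of 238 knockout cells 218 (91.6%), against 11.2 and 92.8 cells if independent within depth bands. *Gm38299* itself went from 27.3 CPM (wild-type) to 53.6 CPM (knockout), a ratio of 1.96 (1.70 to 2.27). With each *Bean1* UMI paired to 1 *Gm38299* UMI of its cell where there was any left, the paired UMIs numbered 44 and 224, a ratio of 6.34 (4.57 to 8.98), and the surplus *Bean1* UMIs numbered 20 and 46, a ratio of 2.87 (1.66 to 5.11). The surplus *Gm38299* UMIs numbered 274 and 277, a ratio of 1.26 (1.06 to 1.49), and surplus UMIs can lie in cells that hold both genes. Cells with *Bean1* and no *Gm38299* numbered 19 in the wild-type library (1.02%, 0.617 to 1.59) and 20 in the knockout library (1.23%, 0.755 to 1.90). The gain of *Bean1* in the knockout library was thus mostly in cells that also counted *Gm38299*. The transcripts of the genes share words of 30 bases at 1 place, a run of 31 bases made of ACCCCAC and 24 As, at positions 2544 to 2574 of the 3386 bases of Bean1-204, after its stop codon, and at positions 1311 to 1341 of the 3789 bases of Gm38299-201. A run of As at least that long is present in 417 of 55341 annotated genes (0.754%). No *Bean1* or *Gm38299* UMI was marked as ambiguous, and whether both were counted from the same molecules was not tested. Antisense to *Bean1* lies *Gm10631*, with 26 and 46 UMIs and a ratio of 2.20 (1.33 to 3.72).

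**Figure D3:**
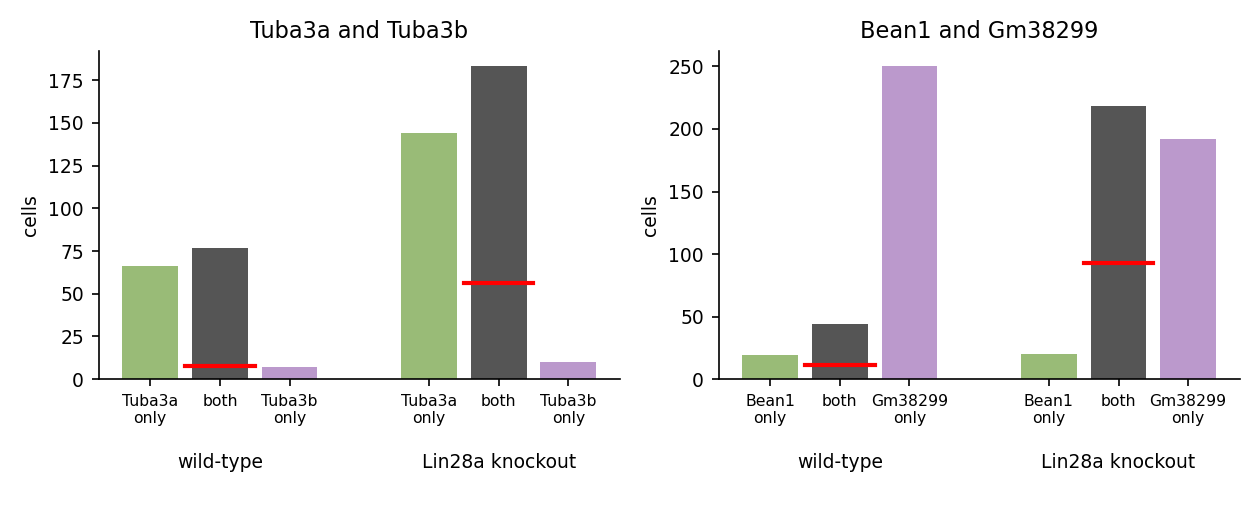
Number of cells (vertical axis) with only the first gene, with both and with only the second gene for *Tuba3a* and *Tuba3b* (left) and *Bean1* and *Gm38299* (right), by library; red lines mark the cells with both if the genes were independent within depth bands. In the knockout library 183 cells held both tubulins, against 56.5, and 218 held *Bean1* and *Gm38299*, against 92.8.

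*Pnma5* (ENSMUSG00000050424.9, chrX:73033981-73037103, minus strand) had no such partner. Its closest relative in sequence, *Pnma3*, shared 918 of its 3103 words of 30 bases but had 1 wild-type and 2 knockout UMIs, and no *Pnma5* UMI was ambiguous. The gene most like it over knockout cells was *Gm43549*, at a correlation of only 0.131. Of the 5 nearest genes with at least 50 UMIs on each side, 3 were more than 2-fold higher in the knockout library, and all 3 belong to the *Xlr* cluster (X-linked lymphocyte-regulated genes, some of which are imprinted in mouse) that lies beside *Pnma5*. *Xlr5a* went from 4 to 47 UMIs, a ratio of 14.6 (5.35 to 56.0). *Xlr5b* went from 5 to 50 (12.5, 5.0 to 40) and *Xlr4a*, the nearest gene on that side, from 6 to 46 (9.55, 4.07 to 27.4). Their ratios were larger than those of the 5 genes, but rest on 4 to 6 wild-type UMIs, with intervals that overlap that of *Bean1*. They fell below the 200 UMIs that the choice asked for. They reached 50 UMIs over both libraries only through their knockout counts, so this limit itself favoured a high ratio among the neighbours.

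The whole cluster was then followed, a step chosen after those values were seen. All 9 *Xlr3*, *Xlr4* and *Xlr5* genes, which lie within 37.2 to 246 kb of *Pnma5*, were higher in the knockout library. *Xlr4b* stood at 5.86 (2.92 to 13.0), *Xlr4c* at 3.96 (1.97 to 8.65), *Xlr5c* at 12.5 (3.88 to 63.8) and *Xlr3c* at 4.61 (2.25 to 10.4), while the most abundant members, *Xlr3a* and *Xlr3b*, were at 1.49 (1.14 to 1.96) and 1.83 (1.43 to 2.36). Copies within a subfamily share reads, and 8 to 25 UMIs of each *Xlr4* and *Xlr5* gene were marked as ambiguous in the knockout table, so the genes are not separate measurements. Counted as cells, which a shared molecule enters only once, a UMI of any *Xlr4* or *Xlr5* gene was found in 21 cells of the wild-type library (1.13%, 0.702 to 1.72) and in 135 of the knockout library (8.32%, 7.02 to 9.77). Of those 135 cells, 53 also had *Pnma5*, against 40.2 if independent within depth bands. Over the 562 X-linked genes with at least 50 UMIs the median ratio was 0.990, and 22 of them (3.91%) were at 2-fold or more.

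Around the other 4 genes, 1 neighbour was at 2-fold or more. The 10 genes taken in the same way around *Tuba3a* ranged from 0.919 to 1.57 (median 1.11), those of *Tuba3b* from 0.360 to 1.22 (median 0.888) and those of *Tmem40* (ENSMUSG00000059900.14, chr6:115729131-115762410, minus strand) from 0.741 to 1.29 (median 0.952). Around *Bean1* they ranged from 0.697 to 2.20 (median 1.05), the highest being the antisense *Gm10631*, which lies inside *Bean1* and is no flanking gene. The 5 on the side of lower coordinates lay far off, -5947 to -1306 kb from the start of *Bean1*, so they do not describe its close surroundings. The nearest measured genes on either side were *Tapbpl* (1.47) and *Ltbr* (0.919) for *Tuba3a*, *Gm44428* (0.850) and *Rassf8* (0.927) for *Tuba3b*, *Gm14335* (1.29) and *Cand2* (0.964) for *Tmem40*, *Gm8730* (1.39) for *Bean1* on the side away from *Gm10631*, and *Zfp185* (1.43) for *Pnma5* on the side away from *Xlr4a*. *Tuba3a*, *Tuba3b* and *Tmem40* are all on chromosome 6, where 27 of 807 genes (3.35%) were at 2-fold or more and the median was 1.06.

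**Figure D4:**
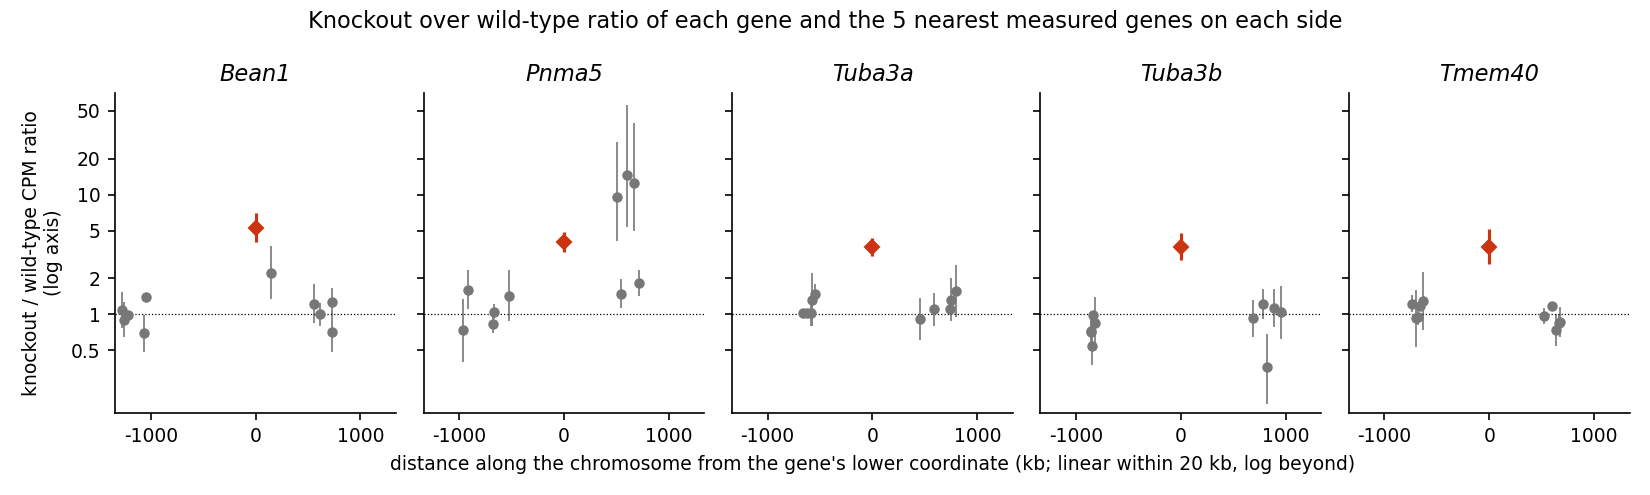
Knockout over wild-type CPM ratio (log axis, with 95% counting intervals) of each of the 5 genes (red diamonds) and of the 5 nearest genes with at least 50 UMIs on each side (grey circles), by distance in kb; the dotted line marks a ratio of 1. Beside *Pnma5* 3 *Xlr* genes lie at 9.55 to 14.6, and these reached 50 UMIs over both libraries only through their knockout counts. Around *Tuba3a*, *Tuba3b* and *Tmem40* all neighbours lie between 0.360 and 1.57.

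Apart from the tubulin copies, the 5 genes shared few cells beyond what depth gave. Over the other 9 pairs, the cells with both numbered 0.860 to 1.31 times the independent expectation in the knockout library (median 1.05) and 0.992 to 2.20 times in the wild-type library (median 1.21), where a pair had 12 shared cells at most. *Bean1* and *Tmem40* shared 22 knockout cells against 25.6, and *Pnma5* and *Tuba3a* shared 113 against 93.8. Of the knockout cells, 382 had 1 of the genes, 219 had 2, 84 had 3, 33 had 4 and 1 had 5, counts that include the 183 cells with both tubulin copies.

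The level of *Tuba3a* and *Tuba3b* in both libraries, and of *Tmem40* in the knockout library, was higher in cells with the largest share of ribosomal protein (RP) transcripts. *Tuba3a* was at 31.6 CPM in knockout cells with 5 to 10% RP UMIs, 56.3 CPM at 10 to 15% and 94.4 CPM at 15% or more, and at 11.6, 15.3 and 26.9 CPM in the same wild-type bands. The highest band stood 2.99-fold (2.36 to 3.79) above the lowest in the knockout and 2.32-fold (1.56 to 3.41) in the wild-type library. For *Tuba3b* the same ratio was 3.07 (2.21 to 4.31) and 2.74 (1.59 to 4.64). *Tmem40* showed 3.20 (2.14 to 4.84) in the knockout library and 1.90 (0.876 to 3.87) in the wild-type library, where the interval includes 1. For *Pnma5* and *Bean1* the intervals included 1, at 1.17 (0.916 to 1.48) and 1.33 (0.974 to 1.81) in the knockout library. Cells were also divided by mitochondrial share, and in knockout cells with under 1% mitochondrial UMIs *Tuba3a* was 2.29-fold (1.84 to 2.86), *Tuba3b* 2.54-fold (1.86 to 3.51), *Tmem40* 3.09-fold (2.04 to 4.79) and *Bean1* 1.46-fold (1.09 to 1.95) above cells with 2% or more, while *Pnma5* was at 0.965 (0.769 to 1.21). In wild-type cells the same ratios were 1.80 (1.14 to 2.93) for *Tuba3a*, 1.91 (1.03 to 3.78) for *Tuba3b*, 1.56 (0.694 to 3.82) for *Tmem40*, 1.77 (0.837 to 4.06) for *Bean1* and 1.02 (0.633 to 1.65) for *Pnma5*. After its copy, the genes most like *Tuba3a* over knockout cells were *Gm6311* (0.207) and *Rps2-ps6* (0.206). Those of *Tuba3b* were *Rps6-ps3* (0.171) and *Dppa5a* (0.170), an ES cell marker, and those of *Tmem40* included *Mrpl58* (0.139) and *Rps18* (0.137), all weak.

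The libraries held different numbers of cells in these bands. Cells at 15% or more numbered 201 of 1856 (wild-type) and 322 of 1622 (knockout), and those under 5% numbered 91 and 239. Within the 5 to 10% band the ratio between the libraries was 2.73 (2.04 to 3.67) for *Tuba3a*, 2.78 (1.83 to 4.28) for *Tuba3b* and 2.70 (1.62 to 4.57) for *Tmem40*, and at 15% or more it was 3.50 (2.50 to 5.0), 3.13 (2.00 to 5.07) and 4.57 (2.45 to 9.27). The knockout library was the higher inside both bands, with overlapping intervals. The bands are parts of the cells whose ratio chose the genes, so a higher knockout level inside them largely follows from that choice. Whether RP share accounts for the difference between the libraries was not tested. *Bean1* stood at 6.29, 3.42 and 6.54 and *Pnma5* at 4.44, 3.23 and 3.79 in the bands from low to high. In the cells under 5%, 4 of the 5 genes had at most 9 knockout UMIs, and *Pnma5* had 14. The ratio there was 2.06 (0.265 to 92.9) for *Bean1* and 0.589 (0.0307 to 34.8) for *Tmem40*, so its direction was not resolved. No UMI of *Pnma5*, *Tuba3a* or *Tuba3b* was counted in the 91 wild-type cells of this kind. A count of 0 there allows up to 30.7 CPM, above the level of these genes in the whole wild-type library.

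**Figure D5:**
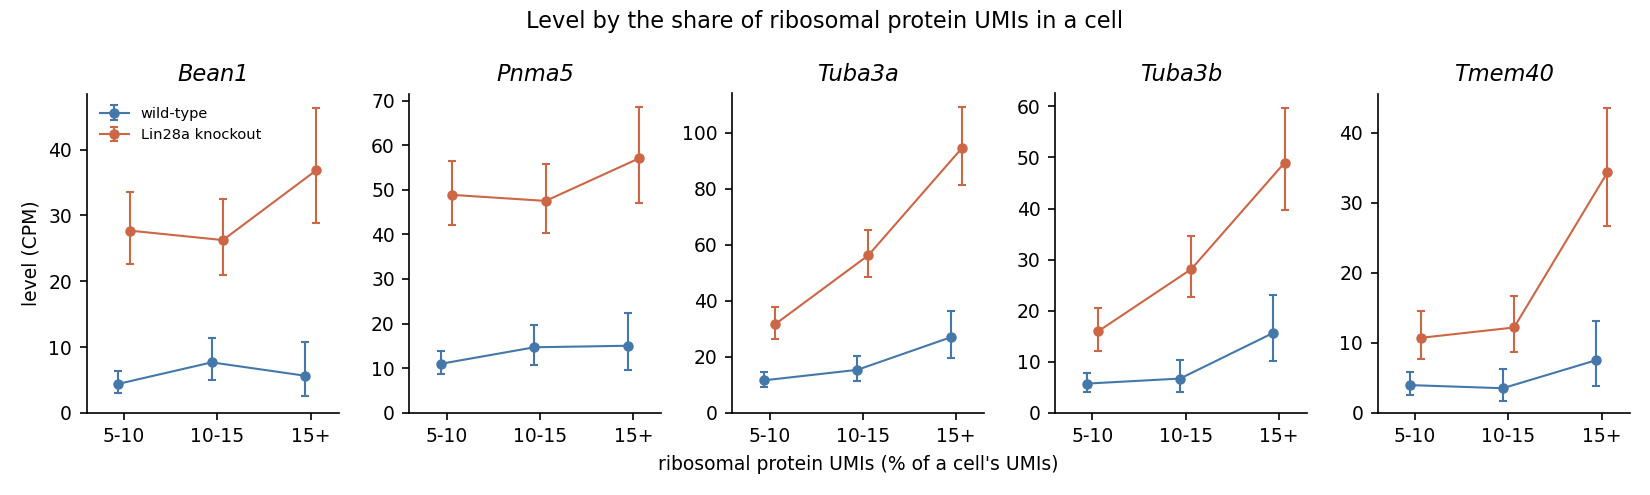
Level in CPM (vertical axis, with 95% counting intervals) of each gene in cells with 5 to 10%, 10 to 15% and 15% or more ribosomal protein UMIs (horizontal axis), wild-type in blue and *Lin28a* knockout in orange. *Tuba3a* climbs from 31.6 to 94.4 CPM in knockout cells, whereas *Pnma5* stays between 47.5 and 57.0 CPM.

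Cells of the knockout library with and without a *Lin28a* UMI were compared because some *Lin28a* RNA was still counted. Knockout cells with a *Lin28a* UMI had a median of 9295 UMIs and those without 4140, and on the CPM scale *Bean1* was at 26.5 and 29.7, *Pnma5* at 50.1 and 49.8, and *Tuba3a* at 40.4 and 57.6 CPM. The ratio of cells with to cells without a UMI was 0.892 (0.662 to 1.19) for *Bean1*, 1.01 (0.810 to 1.24) for *Pnma5*, 0.702 (0.556 to 0.879) for *Tuba3a*, 0.789 (0.571 to 1.07) for *Tuba3b* and 0.673 (0.430 to 1.02) for *Tmem40*. In the wild-type library the same measure gave 0.509 (0.289 to 0.872) for *Bean1*, 0.906 (0.645 to 1.27) for *Pnma5*, 0.680 (0.493 to 0.932) for *Tuba3a*, 0.647 (0.407 to 1.02) for *Tuba3b* and 1.28 (0.710 to 2.34) for *Tmem40*. The knockout over wild-type ratio of the 5 genes was 2.40 to 7.12 among cells with a *Lin28a* UMI and 3.18 to 4.56 among those without. Both kinds are parts of the cells whose ratio chose the genes, so values above 1 largely follow from that choice.

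Barcodes rich in collagen, as feeder fibroblasts are, held few UMIs of the 5 genes. Those with at least 0.5% of UMIs on *Col1a1*, *Col1a2* and *Col3a1*, 41 in the wild-type (median 9273 UMIs) and 21 in the knockout library (median 2295 UMIs), held no UMI of *Tuba3a*, *Tuba3b* or *Tmem40*, which allows up to 7.37 CPM and 27.6 CPM. Both limits are above the level of *Tuba3b* and *Tmem40* in the whole library, so a lower level of these genes was not detectable. They held 1 UMI of *Pnma5*, in the knockout library. *Bean1* was the exception, with 5 UMIs in 5 wild-type collagen-rich cells (12.2%, 4.08 to 26.2; 12.3 CPM, 3.99 to 28.7) and 4 in the knockout (19.0%, 5.45 to 41.9; 36.8 CPM), against 5.25 CPM and 28.8 CPM in all other cells of the libraries. *Bean1* UMIs were thus found in these barcodes too, and free RNA, doublets and expression cannot be told apart at 4 UMIs. Without the collagen-rich barcodes the ratios were 5.49 for *Bean1*, 3.90 for *Pnma5*, 3.56 for *Tuba3a*, 3.58 for *Tuba3b* and 3.58 for *Tmem40*.

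Genes of the same families and processes were set beside the 5, each list by its count past 2-fold and its median, against a median of 1.04 over all 15453 genes, of which 2.18% were past 2-fold higher and 2.67% lower. The other 4 measured alpha-tubulins lay between 1.04 for *Tuba1a* and 1.29 for *Tuba4a*, and none passed 2-fold. None of 8 beta- and gamma-tubulins passed it (median 1.28, highest *Tubb4a* at 1.66, 1.28 to 2.17), nor did any of 20 tubulin folding genes (median 0.937). *Pnma2* was the only other measured member of the *Pnma* list, at 0.724 (0.424 to 1.21). The 10 measured Nedd4 ligases and adaptors, the family that *Bean1* protein binds, had a median of 0.958 with none past 2-fold, and *Nedd4* itself was at 0.802 (0.777 to 0.828). Of 8 germline genes other than the tubulins none was at least 2-fold higher and 2 were at or below 0.5. These 2 were the synaptonemal complex gene *Sycp3* at 0.464 (0.326 to 0.651) and the germ cell helicase *Ddx4* at 0.337 (0.168 to 0.633). *Tex19.1*, which silences retrotransposons in the germline, was at 1.72 (1.57 to 1.88). Of 4 neural genes other than *Bean1* and *Pnma5* none passed 2-fold (median 1.04).

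Of 14 let-7 target genes none was at least 2-fold higher and 2 were at or below 0.5, with a list median of 0.766. These 2 were the chromatin protein gene *Hmga2* at 0.361 (0.294 to 0.442) and the cyclin gene *Ccnd2* at 0.475 (0.432 to 0.522). None of 10 p53 target genes passed 2-fold (median 1.05). The 17 genes of the 2C list, which mark a state like that of the early cleavage embryo, had no member with 50 UMIs and summed to 3.18 CPM over wild-type and 3.10 CPM over knockout cells. Over the 10 lists, 0 of 78 measured genes other than the 5 were at least 2-fold higher and 4 (5.13%) were at or below 0.5, where the shares over all genes were 2.18% and 2.67%.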

How the data were processed

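Single-cell RNA from 1 wild-type and 1 *Lin28a* knockout ES cell library was counted by the authors with the inDrop pipeline, on the mm10 build per the submitters' processing notes, which also name Seurat 2.3.4. The deposited tables hold raw UMI counts, not normalized, of 54146 genes by 4329 and 6060 barcodes, with the UMIs that the pipeline called ambiguous in a column of their own. Barcodes carry running numbers, so those shared by the libraries were not counted. Cells with at least 500 UMIs and at most 20% mitochondrial UMIs were kept, the limits of the study.

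UMIs were summed per library and scaled to CPM. Ratios have exact conditional binomial intervals, levels exact Poisson and shares exact Clopper-Pearson intervals, all for counting error only, since molecules and cells of 1 library are not replicates and no test was possible. Ranking added 0.5 UMIs to each count. Shares were also computed with each cell taken at 500 UMIs. RP share was the sum over 84 genes and mitochondrial share over 37. Pairs were set against independence within 4 depth bands divided at 2000, 5000 and 10000 UMIs. Correlations used log(1 + 10000 times the share of UMIs) over cells with at least 2000 UMIs. Annotation and transcripts were GENCODE M21, which named 54079 of the genes, and promoters were from RefSeq. Doublets were kept; Scrublet marked 27 wild-type and 18 knockout cells, left out in an alternative. Python 3.11.15, scipy 1.17.1, scanpy 1.11.5 and Biopython 1.88 were used.

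The named genes are the 5 genes, *Lin28a*, the 5 ranked next, list genes past 2-fold, nearest neighbours, the 3 genes most alike over knockout cells and the markers; any others were chosen after their values were seen. A gene that this rule names is not reported here. The 5 genes and all lists were chosen with earlier results of these data known. Alternatives changed the cell limits, the scaling and the cells left out.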

Additional observations from a re-analysis of the deposited data

How the results depend on the processing

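The ratios of the 5 genes were recomputed with other cell limits, other denominators, and without collagen-rich, RP-poor or doublet barcodes. All 45 values stayed inside the counting interval of the first value, from 4.92 to 5.49 for *Bean1*, 3.74 to 4.02 for *Pnma5*, 3.49 to 3.68 for *Tuba3a*, 3.54 to 3.74 for *Tuba3b* and 3.41 to 3.79 for *Tmem40*. Median-of-ratios scaling moved all genes by 0.05 (log2). Of 18 further values chosen after seeing the data, 6 left that interval and none changed direction. All rest on parts of the counts whose ratio chose the genes, so their direction largely follows from that choice. Counting only the UMIs in surplus after pairing within cells gave 2.87 for *Bean1* paired with *Gm38299* and 5.16 for *Tuba3b* paired with *Tuba3a*. Cells of 5 to 10% RP gave 2.73 for *Tuba3a* and 2.78 for *Tuba3b*, and cells of 10 to 15% gave 3.42 for *Bean1* and 3.23 for *Pnma5*.

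The share of knockout cells with a UMI moved with the depth at which cells were compared, by construction. From *Bean1*, *Pnma5*, *Tuba3a*, *Tuba3b* to *Tmem40* it was 14.7%, 20.3%, 20.2%, 11.9% and 7.46% at full depth, and 2.72%, 4.85%, 5.04%, 2.52% and 1.60% in the 1311 knockout cells taken at 1000 UMIs. The level of *Tmem40* rests on 51 wild-type UMIs. No paired analysis was possible because each condition is 1 library.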

Other observations

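Barcodes under 500 UMIs numbered 2472 (wild-type) and 4423 (knockout), with medians of 147 and 129 UMIs. They were left out of the values above, except the counts of ambiguous UMIs and the ratios recomputed with no minimum of UMIs. Summed over them, *Pnma5* had 12 wild-type and 21 knockout UMIs, or 27.3 CPM (14.1 to 47.7) and 31.2 CPM (19.3 to 47.7), a ratio of 1.14 (0.536 to 2.54). That interval lies below the interval of 3.32 to 4.86 in the kept cells. The gene was chosen for its ratio in the kept cells and not in these barcodes, so the ratios are not on equal terms. Their contrast was not tested. *Bean1* (1.14, 0.290 to 5.32), *Tuba3a* (1.47, 0.607 to 3.90), *Tuba3b* (1.74, 0.417 to 10.2) and *Tmem40* (1.04, 0.301 to 4.05) had intervals that overlap those of the kept cells, on at most 18 UMIs in a library.

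The level of *Tmem40* differed between depth bands of the knockout library. In knockout cells with 500 to 2000 UMIs it was at 8.17 CPM (2.23 to 20.9), on 4 UMIs, and with 2000 to 5000 at 22.9 CPM. With 5000 to 10000 UMIs it was at 21.4 CPM and with 10000 or more at 10.6 CPM, so it did not fall steadily with depth. The ratio of cells with 10000 or more to those with 2000 to 5000 UMIs was 0.461 (0.273 to 0.800). In wild-type cells the same comparison gave 1.45 (0.513 to 4.64). The other 4 genes had intervals that include 1 between those bands in both libraries.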
